A study of Mus musculus with 12 samples.

Results

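Kidney tubule cells owe much of their identity to a small set of transcription factors, and 9 of the genes encoding them are described here in a kidney collecting duct cell line: Sox9, Sox4, Pax2, Pax8, Lhx1, Emx2, Gata3, Grhl2 and Elf3. They were chosen by name for their known roles, with earlier results of these data known. All 9 were found among the 27179 genes of the deposited expression table, and all 9 passed the filter on low values that left 13939 genes for testing. As background, Pax2 and Pax8 encode paired-box factors that start the nephric duct programme and act upstream of Lhx1, Gata3 and Emx2, whose products guide the growth of the duct and of the ureteric bud that becomes the collecting system. Sox9 encodes an HMG-box factor of the bud tips that is also known to rise in injured tubules, and Sox4 a related factor of many progenitor cells. Grhl2 and Elf3 encode factors of the differentiated epithelium: GRHL2 maintains the genes of the apical junctions, and ELF3 belongs to the ETS family members largely restricted to epithelia.

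Polyadenylated RNA was measured in 12 libraries of mIMCD3, an established mouse line from the inner medullary collecting duct. The 4 groups of 3 libraries were the wild type control, Actr3 KO (the line Actr3 KO-1, without the Arp2/3 actin nucleator subunit ARP3), dKO (Actr3-Ift88 dKO, which also carries a knockout of the intraflagellar transport gene Ift88, required for primary cilia), and Actr3 KO-1 treated with ciliobrevin D at 0.5 µM, a small molecule that blocks cytoplasmic dynein. All groups reached confluence over 48 h in 10% fetal calf serum and were then kept without serum for 24 h, in medium that held the inhibitor or its solvent. Each knockout genotype was 1 line, so a genotype and its line cannot be told apart, and no label says that the replicates were separate cultures, so a p-value here measures only the spread between libraries, which may be technical. The header of 1 control column matches no sample title: it reads as replicate 1 of a control numbered 2, where the titles of all control samples have the number 1. No column carries the title of control replicate 2. Whether the unmatched library is that sample or came from a different control line was not tested. It was kept in the control group, was given no replicate number here, and is called unnumbered below. Depth ranged from 28902562 to 38077987 reads per library. The 10 genes with most reads held 5.18% to 5.90% of the reads in control and 5.98% to 6.16% in dKO. They held 8.69% to 10.2% in Actr3 KO and 9.05% to 10.1% with ciliobrevin D, and the part of this difference in the scaling was not tested. Actr3 itself lay at 8336 ± 293 normalized counts in control and at 1218 ± 111, 871 ± 38.6 and 1573 ± 180 in Actr3 KO, dKO and ciliobrevin D-treated Actr3 KO (mean ± SD, n = 3), whereas Ift88 was at 604 ± 29.8 in dKO against 617 ± 34.2 in Actr3 KO, so its total count does not report on its knockout.

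The collecting duct label was checked against 20 marker genes, of which 15 passed the filter. Keratins, Cdh1 and Epcam were abundant, but Aqp2, the vasopressin-regulated water channel of principal cells, had no reads in the control or Actr3 KO libraries, and Calb1 had none in any library. The summed marker level lay between 100191 and 112360 normalized counts in control and 54724 and 58115 in Actr3 KO. It lay between 66426 and 72054 in the dKO line and 63198 and 66148 after ciliobrevin D. Keratins, Cdh1, Epcam and Cldn7 made up most of each sum. In Actr3 KO, 11 of 15 tested markers were lower than in control and none higher (35.4% and 34.4% of all tested genes). Against Actr3 KO, 6 were higher and 6 lower in dKO, and 4 and 7 with ciliobrevin D. Cldn8 lay at 907 ± 90.1, 202 ± 36.8, 84.8 ± 4.89 and 17.6 ± 12.5 in control, Actr3 KO, dKO and treated cells. Slc14a2 lay at 190 ± 33.8, 21.6 ± 3.22, 7.89 ± 2.04 and 5.44 ± 2.13. Among markers of other cells, Foxi1 of intercalated cells, Hnf4a and Slc34a1 of the proximal tubule and Wt1 of podocytes were at or near 0, while Lrp2, the megalin gene of the proximal tubule, was at 11264 ± 1095 in the control line, 15235 ± 1586 in Actr3 KO, 5905 ± 615 in the dKO line and 11969 ± 279.9 after ciliobrevin D. The podocyte list (2 of 5 tested, Podxl and Synpo) summed to between 5082 and 5614 in control, 6474 and 7254 in Actr3 KO, 4625 and 4869 in dKO, and 3474 and 4177 with ciliobrevin D. The stromal list (4 of 8 tested, mostly Foxd1) summed to 1308 to 1395, 1510 to 1624, 881 to 978 and 1747 to 1874 in the same order. The immune list (2 of 5, mostly Cd68) summed to 180 to 212, 158 to 169, 136 to 156 and 314 to 364. Its other tested gene, Ptprc, lay at 26.3 ± 1.77, 1.66 ± 0.583, 4.71 ± 0.814 and 13.0 ± 3.22. Distal tubule markers (2 of 5) summed to 354 to 516, 385 to 397, 108 to 125 and 111 to 178 in that order, with Umod, which encodes uromodulin, at 429.9 ± 81.1, 387 ± 4.69, 115 ± 6.81 and 118 ± 34.9. Those of intercalated cells (1 of 7) and endothelium (none of 5) never exceeded a sum of 28.8 and 27.2. In bulk RNA, fewer cells of a kind and less RNA per cell cannot be told apart, and the part of cell composition in the values below was not tested.

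Values are normalized counts (each read count divided by a size factor of its library). Group values are means ± SD of 3 libraries. Log2 fold changes are differences in mean log2(value + 1), which understate the change of low genes, and counts of genes changed at least 2-fold use them. Single changes written as a number of fold are ratios of the group means, without the added 1. A gene was called at an adjusted p under 0.05 in limma with Benjamini-Hochberg adjustment over all 13939 genes. Library values are given as replicate 1, the unnumbered library and replicate 3 for control, and as replicates 1, 2 and 3 elsewhere.

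The loss of Actr3 was followed by differences in most of the 9 genes, but only 3 of them were large. In Actr3 KO against control, Sox9 was 2.51-fold lower, while Lhx1 and Gata3 rose 2.50-fold and 2.96-fold. Sox4 and Elf3 rose by small amounts, Pax2, Emx2 and Pax8 fell, and Grhl2 did not pass the test. In all, 8 of 9 genes were called, 4 higher and 4 lower, where 69.8% of all tested genes were called, 34.4% higher and 35.4% lower. A change of at least 2-fold was found in 3 of 9 genes against 12.1% of all tested genes. As the genes were chosen with earlier results known, this share describes only these 9. Since most genes of these cells were called, a call alone does not set the 9 genes apart.

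The second knockout, compared with Actr3 KO, was marked by Lhx1, which was 4.85-fold lower. Sox9, Sox4, Emx2 and Elf3 rose between 1.14-fold and 1.26-fold, Pax2 fell, and Pax8, Gata3 and Grhl2 were not called. The 6 of 9 genes called compare with 65.7% of all tested genes, and the 4 higher and 2 lower genes with 32.5% and 33.2%. Lhx1 was the only one of the 9 to change at least 2-fold, where 9.51% of all tested genes did.

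Ciliobrevin D, compared with solvent in the same Actr3 KO line, went with a 5.99-fold rise of Sox9 and a 2.97-fold fall of Lhx1. Grhl2 was 1.59-fold lower, Pax2 1.34-fold, and Emx2 by less. Pax8, Sox4 and Elf3 rose by small amounts, and Gata3 was not called. In this comparison 8 of 9 genes were called (65.5% of all tested genes), 4 higher (32.7%) and 4 lower (32.9%), and 2 changed at least 2-fold (9.34%). This comparison and the previous one share the Actr3 KO libraries, which also enter the comparison with control, so that a high or low Actr3 KO value moves all 3.

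Against control, 7 of 9 genes were called in dKO (67.1% of all tested genes) and 7 of 9 in ciliobrevin D-treated Actr3 KO (65.1%), 2 comparisons that share the control libraries. Emx2 and Grhl2 were the uncalled ones in dKO, and Pax8 and Lhx1 with ciliobrevin D. Between dKO and ciliobrevin D-treated Actr3 KO, 6 of 9 were called (73.4%), all but Sox4, Pax2 and Gata3.

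**Figure D1:**
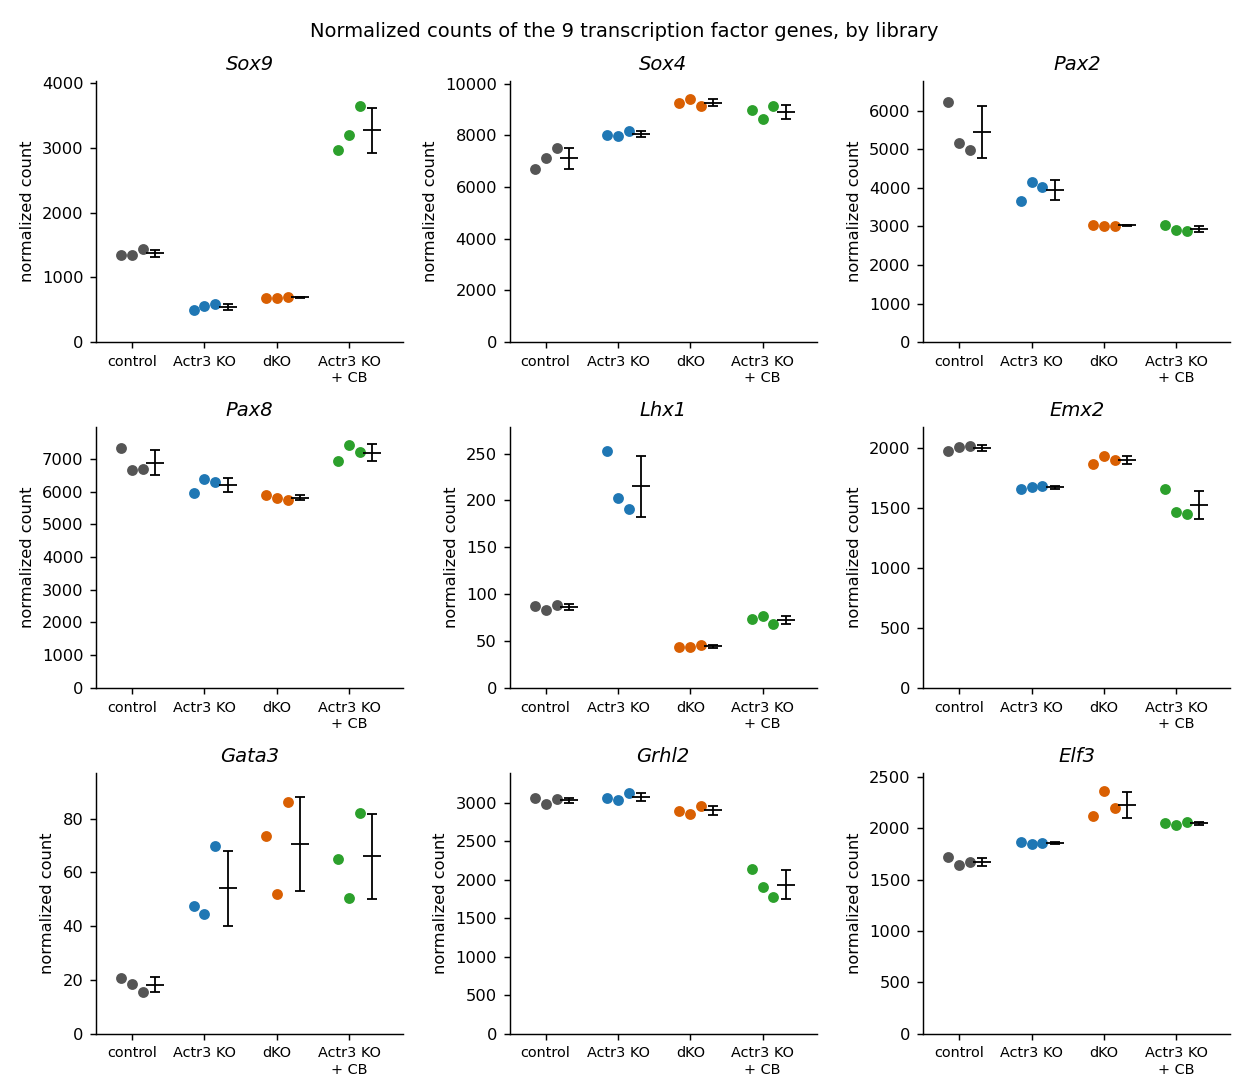
Normalized counts of the 9 genes, 1 panel per gene, with a point for each of the 12 libraries and the mean ± SD (n = 3) of each group beside them; each axis starts at 0 and "+ CB" marks ciliobrevin D. Sox9 stands highest in the ciliobrevin D libraries (2971 to 3647), Lhx1 in Actr3 KO (191 to 252), and Gata3 is low in control (15.3 to 20.8).

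Between genes, levels can be compared only per length of transcript. Divided by the length of the merged GENCODE exons, control levels ran from 1483 ± 84.3 normalized counts per kb for Sox4 through Pax8 (1136 ± 61.6), Pax2 (1007 ± 124), Elf3 (756 ± 17.7), Emx2 (666 ± 7.35), Grhl2 (352 ± 4.14) and Sox9 (332 ± 13.1) to Lhx1 (21.2 ± 0.757) and Gata3 (4.59 ± 0.693). Most of the set was thus well expressed, and only Lhx1 and Gata3 were low, Gata3 with 17 to 24 reads in a control library. The same 2 genes were the lowest per kb in every group, while Sox9 moved from 332 ± 13.1 in control to 132 ± 11.5 in Actr3 KO and 791 ± 83.3 with ciliobrevin D, above the treated level of Pax2 (543 ± 16.0) and Grhl2 (225 ± 21.4).

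**Figure D2:**
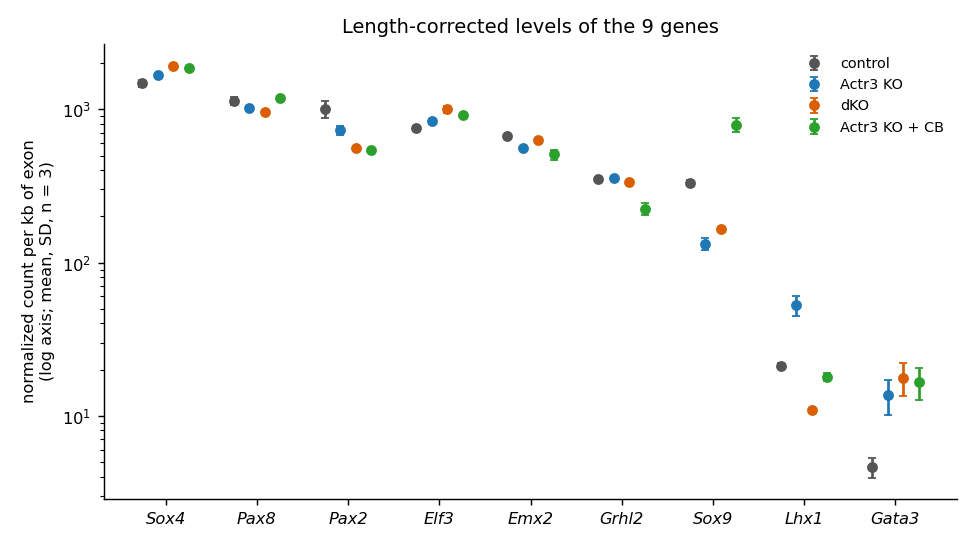
Mean level of each gene in normalized counts per kb of exon (log axis, bars are the SD of 3 libraries) in the 4 groups, with genes ordered by their control level. Lhx1 and Gata3 lie below 100 in all groups, and Sox9 spans the widest range among the other genes, from 132 to 791.

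Sox9 (Entrez 20682, chr11:112782210-112787757 in GRCm38, plus strand) changed in all 6 comparisons. Its values were 1339, 1343 and 1435 in control, 493, 561 and 584 in Actr3 KO, 689, 678 and 703 in dKO, and 2971, 3197 and 3647 with ciliobrevin D. No 2 groups overlapped: the Actr3 KO libraries were lowest, dKO next, then control, and the treated libraries were highest. Actr3 KO lay 1.33 below control (log2 fold change -1.33, SE 0.0735, limma adjusted p = 1.63e-12). Its level was higher in dKO than in Actr3 KO by 0.34 (adjusted p = 0.00036, limma) and still 0.99 lower than in control (log2 fold change -0.99, adjusted p = 1.55e-10). With ciliobrevin D it rose by 2.58 over Actr3 KO (adjusted p = 8.73e-17, limma), and so to 2.38-fold the control level. Of all tested genes, 99.1% had a lower fold change than Sox9 in the ciliobrevin D comparison.

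Sox4 (Entrez 20677, chr13:28948919-28953699, minus strand) had 6699, 7125 and 7507 normalized counts in control, 8014, 7983 and 8183 in Actr3 KO, 9273, 9399.9 and 9147 in dKO, and 8984, 8628 and 9156 with ciliobrevin D. Control was lowest without overlap, Actr3 KO came next, and the dKO and treated libraries overlapped at the top. The steps were small: 0.18 from control to Actr3 KO (SE 0.0510, limma adjusted p = 0.00333), 0.20 from Actr3 KO to dKO (adjusted p = 0.00152) and 0.15 with ciliobrevin D (adjusted p = 0.0161). Under quantile normalization the ciliobrevin D difference turned to -0.048 (adjusted p = 0.391, range over the 23 alternatives 0.00495 to 0.391), and without ciliobrevin D replicate 3 its adjusted p was 0.0515; with chromosome medians removed the dKO difference was 0.075 (adjusted p = 0.197, range 0.000111 to 0.197). In GENCODE, 54.6% of the exon bases of Sox4 overlap a long non-coding RNA gene on the opposite strand, Gm26735. No source used here says whether counting used strand, so reads of both genes may be mixed. The same limit holds for smaller opposite-strand overlaps, with 7.31% of the exon bases of Elf3, 6.1% of Pax8, 3.9% of Gata3 and 1.96% of Grhl2.

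The paired-box genes differed from each other. Pax2 (Entrez 18504, chr19:44746601-44838269, plus strand) had 6216, 5152 and 4969.9 normalized counts in control, 3661, 4157 and 4016 in Actr3 KO, 3041, 3011 and 3022 in dKO, and 3034, 2908 and 2868 with ciliobrevin D. Control was highest and Actr3 KO next, without overlap, and the other 2 groups overlapped at the bottom. Its fold changes were -0.46 in Actr3 KO against control (SE 0.0674, limma adjusted p = 3.46e-06), -0.38 in dKO against Actr3 KO (adjusted p = 4.12e-05) and -0.42 with ciliobrevin D (adjusted p = 1.18e-05). Against control, dKO was 1.80-fold lower (log2 fold change -0.84, adjusted p = 5.22e-10, limma) and the treated cells 1.85-fold lower (-0.88, adjusted p = 3.63e-10). No difference between these 2 groups was called (0.043, SE 0.0674, adjusted p = 0.575). Pax2 was called in all 5 comparisons with control or Actr3 KO under each of the 23 alternatives.

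Pax8 (Entrez 18510, chr2:24420551-24475599, minus strand) moved less, with 7319, 6651 and 6694 in control, 5961, 6382 and 6278 in Actr3 KO, 5885, 5799 and 5737 in dKO, and 6928, 7429 and 7216 with ciliobrevin D. Control and treated libraries overlapped at the top, and dKO was lowest. It was 0.15 lower in Actr3 KO than in control (log2 fold change -0.15, SE 0.0517, limma adjusted p = 0.0142), a call that was lost under quantile normalization (adjusted p = 0.892, range over alternatives 0.000267 to 0.892), without control replicate 1 (0.0920) and without Actr3 KO replicate 1 (0.0709). Ciliobrevin D went with a rise of 0.21 (adjusted p = 0.00115, limma), which was 0.033 under quantile normalization (adjusted p = 0.573, range 0.000101 to 0.573). The difference of -0.095 in dKO against Actr3 KO was not called (adjusted p = 0.111). Its direction with ciliobrevin D was thus opposite to that of Pax2 in the same libraries.

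Lhx1 (Entrez 16869, chr11:84517975-84525534, minus strand), a LIM-homeodomain gene of the nephric duct, had 87.6, 82.7 and 88.4 normalized counts in control, 252, 203 and 191 in Actr3 KO, 43.7, 43.5 and 46.1 in dKO, and 73.4, 76.5 and 67.7 with ciliobrevin D. Every Actr3 KO library was above every other library, and every dKO library below. The rise in Actr3 KO was 1.30 (SE 0.139, limma adjusted p = 3.95e-08), and both comparisons with Actr3 KO then went down, by log2 fold changes of -2.24 in dKO (adjusted p = 1.05e-11) and -1.55 with ciliobrevin D (adjusted p = 3.65e-09). The dKO level was also lower than control (log2 fold change -0.94, adjusted p = 4.2e-06, limma), whereas the treated level did not differ from control in the test (-0.25, adjusted p = 0.124; quantile normalization gave 0.0495, in a range up to 0.267). In dKO, 47 reads stood behind each library's value. Only 1.56% of all tested genes had a lower fold change in dKO against Actr3 KO, and 0.847% with ciliobrevin D.

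Emx2 (Entrez 13797, chr19:59458690-59465357, plus strand), a homeobox gene required in the ureteric bud, had 1974, 2009 and 2014 in control, 1658, 1676 and 1682 in Actr3 KO, 1862, 1936 and 1898 in dKO, and 1661, 1467 and 1453 with ciliobrevin D. Actr3 KO was lower than control and dKO without overlap, and 1 of the 3 treated libraries lay within the Actr3 KO range. It fell by 0.26 in Actr3 KO (SE 0.0552, limma adjusted p = 0.000301) and rose by 0.18 from Actr3 KO to dKO (adjusted p = 0.00608), where it did not differ from control in the test (log2 fold change -0.074, adjusted p = 0.240). The difference with ciliobrevin D, -0.13 (adjusted p = 0.0388), was not called in 10 of the 23 alternatives, among them leaving out any of the Actr3 KO libraries or ciliobrevin D replicate 2 or 3 (adjusted p over all alternatives 0.00354 to 0.148). An antisense gene, Emx2os, overlaps 8.79% of the Emx2 exon bases and was at 172 ± 15.1 in control and 148 ± 16.1 with ciliobrevin D.

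Gata3 (Entrez 14462, chr2:9857078-9887953, minus strand), which encodes a zinc-finger factor of the duct and the collecting system, had 20.8, 18.7 and 15.3 normalized counts in control, 47.7, 44.5 and 69.9 in Actr3 KO, 73.4, 51.8 and 86.4 in dKO, and 65.0, 50.6 and 82.2 with ciliobrevin D. All 9 libraries of the Actr3 knockout groups were above the 3 control libraries, and the 3 knockout groups overlapped. Against control the fold changes were 1.50 in Actr3 KO (SE 0.231, limma adjusted p = 7.04e-06), 1.87 in dKO (adjusted p = 3.78e-07) and 1.78 with ciliobrevin D (adjusted p = 9.05e-07), and these 3 comparisons share the control libraries. With 41 to 88 reads per library in the 3 knockout groups and a spread of 24% to 25.6% of the mean within them, the differences of 0.38 for dKO (adjusted p = 0.159) and 0.28 for ciliobrevin D (adjusted p = 0.290) from Actr3 KO were not detectable. The former was called without dKO replicate 2 (0.58, adjusted p = 0.0477) and under quantile normalization (0.57, adjusted p = 0.0363, in a range over alternatives up to 0.482).

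Grhl2 (Entrez 252973, chr15:37232821-37363569, plus strand) was level in 3 groups and low in 1. Its values were 3056, 2988 and 3043 in control, 3059, 3035 and 3129 in Actr3 KO, 2889, 2852 and 2961 in dKO, and 2136, 1902 and 1771 with ciliobrevin D. Control and Actr3 KO overlapped, dKO lay just below both, and all treated libraries were far below the rest. Ciliobrevin D went with a fold change of -0.67 (SE 0.0574, limma adjusted p = 1.78e-09) against Actr3 KO, and the treated level was also 0.65 lower than control (log2 fold change -0.65, adjusted p = 3.42e-09). The fold change was 0.021 in Actr3 KO against control (adjusted p = 0.753) and -0.084 in dKO against Actr3 KO (adjusted p = 0.206), the latter called only with chromosome medians removed (adjusted p = 0.0301, range over alternatives 0.0301 to 0.358).

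Elf3 (Entrez 13710, chr1:135253574-135258472, minus strand) had 1718, 1640.1 and 1669 normalized counts in control, 1868, 1849 and 1859 in Actr3 KO, 2115, 2362 and 2197 in dKO, and 2048, 2037 and 2062 with ciliobrevin D. The 4 groups did not overlap: control was lowest, followed by Actr3 KO, the treated cells and dKO. Its fold changes were 0.15 in Actr3 KO against control (SE 0.0516, limma adjusted p = 0.0138), 0.26 in dKO against Actr3 KO (adjusted p = 0.000164) and 0.14 with ciliobrevin D (adjusted p = 0.0214). The first was not called without the control library with no number (adjusted p = 0.0545) or with a replicate block (0.0952, the highest of a range from 0.00223), and the last not under 3 alternatives (adjusted p 0.0172 to 0.194 over all 23). Over the 757 tested genes of chromosome 1 the median fold change in dKO against Actr3 KO was -0.21, and with chromosome medians removed Elf3 was 0.49 higher in dKO (adjusted p = 8.59e-08).

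**Figure D3:**
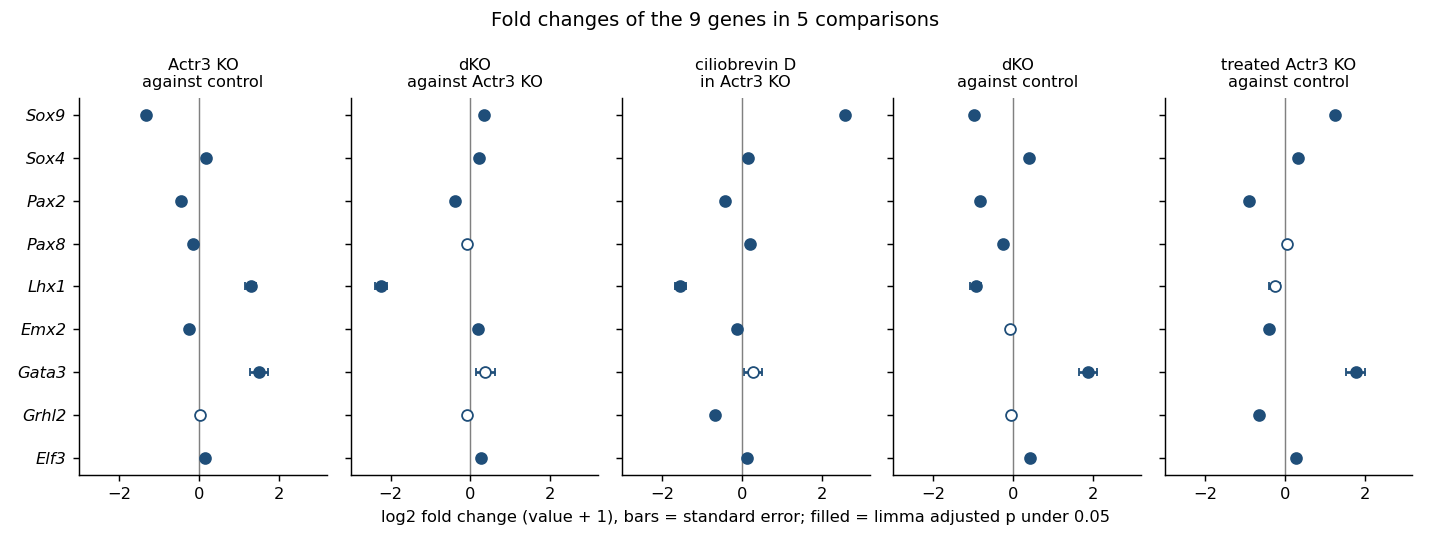
Log2 fold change (value + 1) of each of the 9 genes in 5 comparisons, 1 panel each, with the standard error as a bar; filled points have a limma adjusted p under 0.05. Lhx1 is at 1.30 in Actr3 KO against control and at -2.24 and -1.55 in the comparisons with Actr3 KO, and Gata3 lies to the right of 0 in all 3 comparisons with control.

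**Figure D4:**
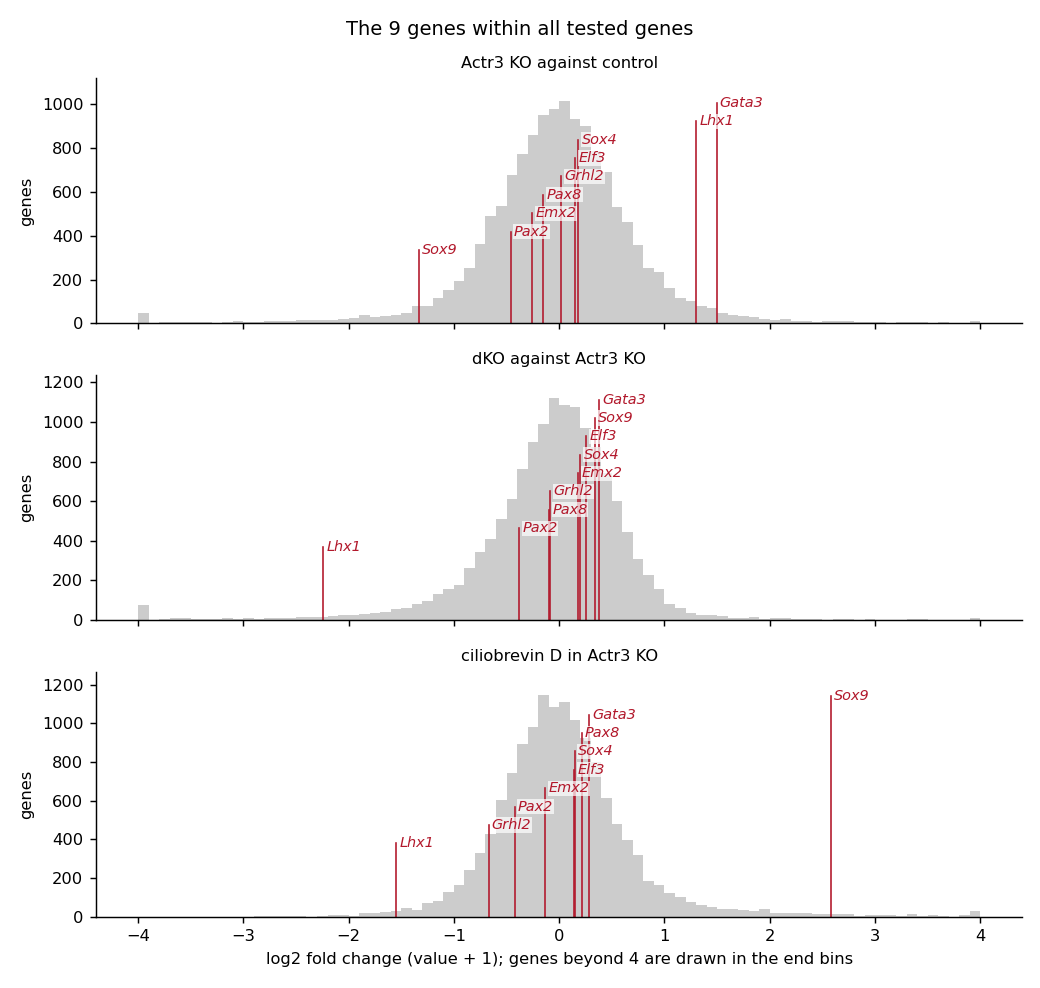
Distribution of log2 fold changes (value + 1) over the 13939 tested genes in 3 comparisons (grey bars, number of genes per bin; genes beyond 4 are drawn in the end bins), with the 9 genes as labelled red lines whose heights only separate the labels. Most of the 9 lie within the bulk of genes. Lhx1 lies in its tails in all 3 comparisons, Sox9 in Actr3 KO against control and with ciliobrevin D, and Gata3 in Actr3 KO against control.

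Several of the genes followed similar courses over the libraries. As a description over 12 libraries, which are 4 groups of 3, log2 levels of Sox4 correlated with those of Elf3 at 0.93 and of Gata3 at 0.86, Gata3 with Elf3 at 0.80, and Pax2 with Sox4 at -0.97, with Elf3 at -0.88 and with Gata3 at -0.86. Sox4, Elf3 and Gata3 were thus high where Pax2 was low. Sox9 correlated with Pax8 at 0.84 and with Grhl2 at -0.85, and Emx2 with Grhl2 at 0.76.

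The 250 bases before a RefSeq start are shown for the 3 genes that rose together, Sox4, Elf3 and Gata3, for Pax2, which ran opposite to them, and for Lhx1, the gene with the largest falls. Of the 9 genes, 7 (all but Sox9 and Grhl2) have such a window in the RefSeq table (GRCm38.p6), 9 windows in all, since Pax2 has 3 starts. The most downstream Pax2 start is printed because it is the one whose first transcribed bases were found in a GENCODE transcript. The Gata3 window precedes a start that lies inside the gene span given above, and the bases before the upstream end of that span were not examined. Capitals mark matches, on either strand, to 8 short motifs: for SOX factors ACAAAG, for zinc-finger factors of the GATA family AGATAA, for paired-box factors GTCACGC, for LIM and EMX homeodomains TAATTA, for GRHL factors AACCGGTT, for ELF factors AGGAAG, for ZEB and SNAI repressors CACCTG, and for the promoter box of that name TATAAA. Each line runs 5′ to 3′ on the gene's strand.
Sox4, chr13:28953700-28953949, minus strand: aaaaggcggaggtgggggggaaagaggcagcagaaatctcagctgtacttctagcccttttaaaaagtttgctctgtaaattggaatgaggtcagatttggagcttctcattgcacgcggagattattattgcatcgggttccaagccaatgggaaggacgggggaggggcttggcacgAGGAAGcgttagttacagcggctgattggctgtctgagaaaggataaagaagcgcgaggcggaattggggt
Elf3, chr1:135258473-135258722, minus strand: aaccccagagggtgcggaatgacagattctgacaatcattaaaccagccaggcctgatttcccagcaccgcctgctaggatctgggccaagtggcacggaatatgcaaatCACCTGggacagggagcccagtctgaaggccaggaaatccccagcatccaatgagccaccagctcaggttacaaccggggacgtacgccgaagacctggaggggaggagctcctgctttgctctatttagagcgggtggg
Gata3, chr2:9878601-9878850, minus strand: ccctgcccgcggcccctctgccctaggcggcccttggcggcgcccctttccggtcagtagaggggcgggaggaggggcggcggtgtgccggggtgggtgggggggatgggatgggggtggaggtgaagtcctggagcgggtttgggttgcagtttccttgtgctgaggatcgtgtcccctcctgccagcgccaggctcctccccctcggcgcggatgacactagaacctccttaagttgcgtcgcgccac
Pax2, chr19:44756656-44756905, plus strand: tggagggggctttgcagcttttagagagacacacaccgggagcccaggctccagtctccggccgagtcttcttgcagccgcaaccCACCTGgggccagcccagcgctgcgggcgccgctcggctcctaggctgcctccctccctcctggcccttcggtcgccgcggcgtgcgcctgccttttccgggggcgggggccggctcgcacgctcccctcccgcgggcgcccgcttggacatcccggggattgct
Lhx1, chr11:84525535-84525784, minus strand: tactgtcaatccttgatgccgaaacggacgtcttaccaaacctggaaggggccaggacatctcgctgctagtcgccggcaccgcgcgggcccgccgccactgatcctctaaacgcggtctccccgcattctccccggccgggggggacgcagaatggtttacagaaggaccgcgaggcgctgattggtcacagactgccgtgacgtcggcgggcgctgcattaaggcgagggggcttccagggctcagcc

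The Sox4 window holds 1 match to AGGAAG, whose first base is at -71 from the start, and the Pax8 window another at -210. CACCTG was found once in the Elf3 window, at -140, and once in the Pax2 window shown, at -165, and ACAAAG once in each of the other two Pax2 windows. The windows of Gata3, Lhx1 and Emx2 hold none of the 8 motifs. Over the 32851 promoters of the table, AGGAAG was found in 29.5%, CACCTG in 17.2%, ACAAAG in 16.5%, TATAAA in 12.4%, AGATAA in 9.99%, TAATTA in 4.84%, GTCACGC in 1.78% and AACCGGTT in 0.116%, so matches of the first 3 are common, and a match is a run of letters, not a bound site. The windows of Sox4, Gata3, Lhx1, Emx2 and the 2 downstream Pax2 starts had a ratio of observed to expected CpG over 0.6 (6 of 9 windows), as did 33.95% of all promoters. Sox4, Elf3 and Gata3 thus shared no motif, and 2 of them, Sox4 (ratio 0.801) and Gata3 (0.633), but not Elf3 (0.392), were rich in CpG.

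For each gene the most similar expression course was sought among 10640 well-expressed genes, as Pearson's r of log2 values over the 12 libraries. Ndrg1, a gene known to rise under hypoxia and other stress, ran closest to Sox9 (r = 0.997), at 15189 ± 981 normalized counts in the control line, 7638 ± 493 in Actr3 KO, 8522 ± 257 in the dKO line and 30042 ± 2853 after treatment, and Larp1b came next (r = 0.996). Closest to Sox4 were Bst1 (0.979) and Frs2 (0.962), to Pax2 Dennd2a (0.986) and Pdp2 (0.981), and to Pax8 Enah (0.973), an actin-binding protein gene, and Srrm1 (0.965). Lhx1 was matched by Zfp760 (0.988) and Psen2 (0.983), Emx2 by Mrps24 (0.983) and Wbp1 (0.978), and Gata3 by Map3k5 (0.966) and Mcm8 (0.956). Grhl2 ran with Acadm and Gnb1l (both 0.987), and Elf3 with Rhobtb1 (0.985) and Trappc10 (0.970). These coefficients come from 12 points in 4 groups and are the highest of 10640, so they only describe likeness.

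The other genes of the kidney and epithelial programmes were followed in lists, each described by its counts and its median fold change, beside the median of all tested genes (0.0047, -0.012 and -0.015 in the 3 comparisons of Actr3 KO against control, dKO against Actr3 KO and ciliobrevin D in Actr3 KO). Of all tested genes, 34.4%, 32.5% and 32.7% were called higher in these 3 comparisons, and 35.4%, 33.2% and 32.9% lower. A few counted genes passed the filter mainly through the group where they were high, as described below for Twist1, Hoxc9 and Wnt11. Of 45 further transcription factors of the kidney lineage, 30 could be tested. In Actr3 KO against control, 9 were higher and 15 lower (median -0.21). Etv4, an ETS gene downstream of RET signalling in the bud, fell from 972 ± 23.5 to 112 ± 16.6, and Ppargc1a, a coactivator of mitochondrial genes, rose from 100.5 ± 20.1 to 445 ± 23.6. Going from Actr3 KO to dKO 13 were higher and 12 lower (median 0.11; 15 and 9 under quantile normalization, 15 and 8 with chromosome medians removed), among them Notch2, a receptor counted with this list, which fell from 29435 ± 2925 to 9377 ± 288. Ppargc1a rose again in the dKO line, to 1197 ± 90.7. With ciliobrevin D 9 were higher and 11 lower (median 0.027; 0.016 under quantile normalization), and Etv4 rose to 1179 ± 107 and its relative Etv5 from 23.3 ± 9.22 to 187 ± 25.6. Like Sox9, Etv4 was thus lower in Actr3 KO than in control and higher with ciliobrevin D than in Actr3 KO.

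Of 25 further factors of the epithelial state, 18 could be tested, and 13 of them were lower and 1 higher in Actr3 KO than in control (median -0.44). Klf4, a factor of epithelial differentiation, fell from 1188 ± 107 to 296 ± 25.4 and Foxq1 from 504.0 ± 57.0 to 103 ± 5.56. With ciliobrevin D the counts turned round, with 13 higher and 2 lower than in Actr3 KO (median 0.58): Klf4 rose to 2629 ± 391 and Klf5 from 1041 ± 21.8 to 2656 ± 133. In dKO against Actr3 KO 5 were higher and 7 lower (median -0.099; 5 and 8, median -0.015, under quantile normalization and 7 and 7, median 0.028, with chromosome medians removed), with Klf5 higher at 1457 ± 43.2 and Id1 lower, from 508 ± 38.2 to 256 ± 18.2. Grhl2 itself fell with ciliobrevin D in the libraries in which most of this list rose.

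Factors that drive the epithelial to mesenchymal transition numbered 11, of which 7 could be tested: 1 was higher and 5 lower in Actr3 KO against control, 2 higher and 3 lower in dKO against Actr3 KO, and 4 higher and none lower with ciliobrevin D. Zeb1, a repressor of Cdh1, was the one that rose in Actr3 KO, from 144 ± 15.2 to 454 ± 4.74, and it fell to 174 ± 7.39 in dKO. Twist2 fell in Actr3 KO from 621 ± 65.4 to 381 ± 41.5, and Tcf4 fell in dKO against Actr3 KO from 4872 ± 163 to 3403 ± 79.5. Zeb2 rose with ciliobrevin D from 184 ± 23.7 to 723 ± 77.5 and Twist2 to 1325 ± 145. The medians of this list were -0.70, -0.52 and 0.71; the second was 0.14 under quantile normalization. Without the control library with no number, where 6 of the genes were tested, the first was -0.40 and the second -0.11. Twist1 passed the filter through the control libraries alone, at 18.1 ± 4.45 there and 0.690 ± 1.20 in Actr3 KO. It was at 0 in dKO and at 2.70 ± 1.63 with ciliobrevin D. Its place among the genes lower than control thus partly follows from the filter.

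Family relatives of the SOX, PAX, LIM, EMX and GATA members numbered 39, and only 12 had enough reads to be tested. In Actr3 KO against control 6 were higher and 3 lower (median 0.22). Lhx2 rose from 38.1 ± 0.723 to 237 ± 29.0 and Sox8, a close relative of Sox9, from 84.8 ± 5.36 to 430 ± 6.14, while Sox9 itself fell. Of the relatives, in dKO against Actr3 KO 4 were higher and 4 lower (median -0.22; 0.065 under quantile normalization), with Sox8 lower at 88.0 ± 9.19 and Sox11, the relative of Sox4, lower, from 2264 ± 81.6 to 737 ± 16.8. Ciliobrevin D left 3 higher and 3 lower (median -0.091), with Sox11 higher at 5180 ± 481 and Gata2 higher, from 36.5 ± 3.70 to 177 ± 24.2.

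Genes of ureteric bud signalling and branching, 21 tested of 30, were split in Actr3 KO against control (8 higher, 10 lower, median -0.12; 8 and 8, median -0.061, with chromosome medians removed), with Bmp7 up from 112 ± 9.50 to 579 ± 17.4 and Slit2 up from 285 ± 26.8 to 893 ± 85.7. In dKO against Actr3 KO 5 were higher and 14 lower (median -0.68). Fgfr1, a growth factor receptor gene, fell from 399 ± 11.7 to 19.3 ± 3.86, and Npnt, which encodes a basement membrane ligand, from 19225 ± 1159 to 7414 ± 273. With ciliobrevin D 7 were higher and 8 lower (median 0.092; 0.022 under quantile normalization), including Fgfr2, lower from 6055 ± 158 to 1647 ± 216, and Npnt, lower at 6295 ± 724. Ret, the receptor of the bud tip, was at or near 0 in every library.

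Known targets of PAX2, PAX8, SOX9, GRHL2 and ELF3 were then counted, from textbook lists that were not drawn from this tissue alone. The other factors had no target list. Of 24 genes described as targets of PAX2 or PAX8, 17 could be tested, and these include Lhx1, Gata3 and Emx2. The list had 7 higher and 9 lower in Actr3 KO against control (median -0.21), 4 higher and 11 lower in dKO against Actr3 KO (median -0.98) and 3 higher and 9 lower with ciliobrevin D (median -0.28; -0.18 under quantile normalization). Cdh16, the kidney-specific cadherin, rose from 18297 ± 480 to 35475 ± 1419 in Actr3 KO, where Pax2 and Pax8 fell, and Plac8 fell there from 556 ± 31.1 to 172 ± 23.8. Gfra1, a co-receptor of RET, fell in dKO from 502 ± 64.8 to 136 ± 20.6, and Wnt4 fell with ciliobrevin D from 879 ± 31.5 to 506 ± 26.0.

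Targets of SOX9 were taken mainly from cartilage, and 11 of 23 could be tested. In Actr3 KO against control, where Sox9 fell, 2 were higher and 7 lower (median -0.51; 2 and 6, median -0.26, with chromosome medians removed), with Spp1, encoding osteopontin, down from 28307 ± 1949 to 6893 ± 590 and Cd24a down from 15493 ± 359 to 6357 ± 227. With ciliobrevin D, where Sox9 rose 5.99-fold, 5 were higher and 2 lower (median 0.042; 5 and 3, median -0.076, under quantile normalization and 0.0013 with chromosome medians removed), among them Spp1, higher at 17695 ± 998, and Cdkn1a, from 5673 ± 358 to 11186 ± 865. In dKO against Actr3 KO 5 were higher and 3 lower (median 0.29; 4 and 4, median 0.17, with chromosome medians removed), with Cd24a higher at 9648 ± 69.5 and Col27a1 lower, from 70.4 ± 7.35 to 12.8 ± 3.48.

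Targets of GRHL2 and ELF3, the genes of junctions, keratins and apical proteases, could be tested for 29 of 30 names. The remaining name, Pvrl4, is an older symbol of Nectin4, which was tested. In Actr3 KO against control, where Grhl2 was not called, 9 were higher and 12 lower (median -0.067; 12 and 12, median 0.050, under quantile normalization and -0.029 with chromosome medians removed), with Krt8 lower, from 25272 ± 1454 to 9727 ± 560.0, and Krt18 lower, from 13272 ± 742 to 5447 ± 382. With ciliobrevin D, where Grhl2 fell and Elf3 rose slightly, 6 were higher and 20 lower (median -0.49). Tmprss2, a membrane protease gene, fell with ciliobrevin D from 4253 ± 91.1 to 1709 ± 137 and Itgb6, an integrin gene, from 1118 ± 64.1 to 410.1 ± 43.2. The dKO line had 15 of them higher than Actr3 KO and 9 lower (median 0.13; 11 and 10, median 0.041, with chromosome medians removed), with Cldn3, a tight junction gene, higher from 2948 ± 225 to 10499 ± 637 and Krt18 higher at 9805 ± 420. This list shares Krt7, Krt8, Krt18, Cdh1, Epcam and Cldn7 with the collecting duct markers, whose counts with ciliobrevin D were 4 higher and 7 lower, including Cdh1, lower from 13980 ± 1416 to 6278 ± 431, and Krt19, higher from 4343 ± 202 to 13623 ± 996. Krt19 had fallen in Actr3 KO from 14835 ± 1179, and Krt7 rose in dKO from 4895 ± 283 to 8559.8 ± 563.

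**Figure D5:**
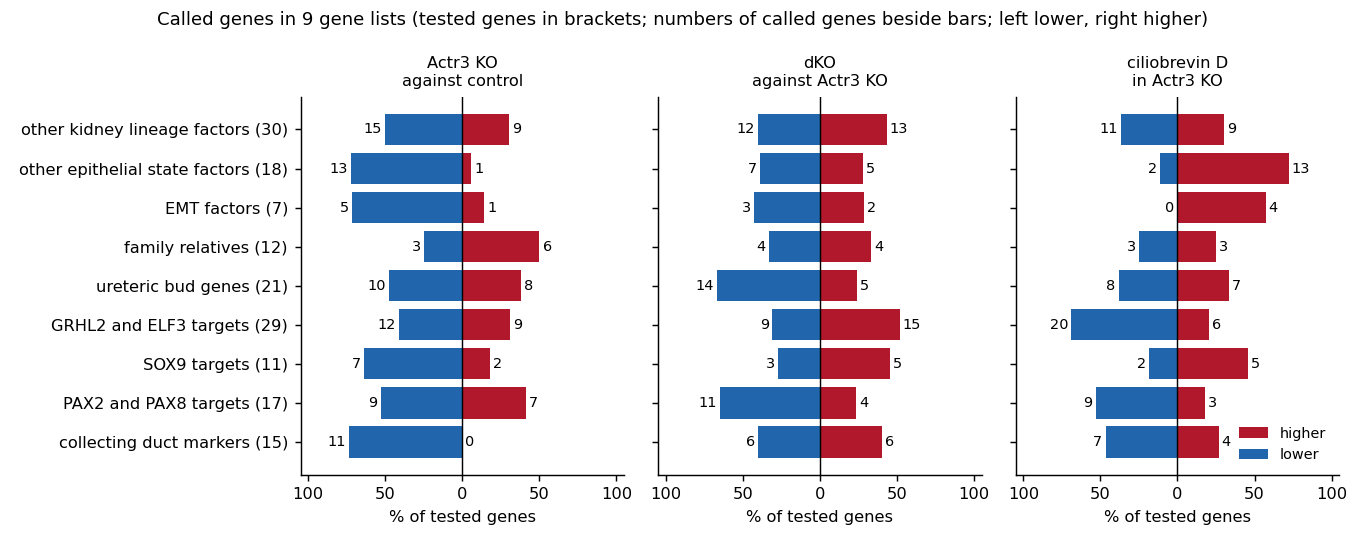
Share of the tested genes of each list that were called lower (bars to the left) and higher (bars to the right) in 3 comparisons, in percent of the tested genes (number in brackets), with the numbers of called genes beside the bars. Epithelial state factors go from 13 lower and 1 higher in Actr3 KO against control to 2 lower and 13 higher with ciliobrevin D, and GRHL2 and ELF3 targets have 20 lower with ciliobrevin D.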

How the data were processed

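Per the labels' protocols, polyadenylated RNA was turned into libraries with the NEBNext Ultra II kit and read on a NovaSeq machine. The tools, per the submitters' processing notes, were DESeq2 2.11.40.7, featureCounts 2.0.1, HISAT2 2.2.1 and fastp 0.23.2 and the builds GRCm38 and mm10; their combination, and any use of strand, are not stated in the sources used here. The authors' deposited table holds a signal: featureCounts counts, per the file headers, divided by a size factor of each library (100% of values were whole multiples of 1 step, tolerance 0.01 reads), with no correction for gene length. Of the IDs, 1886 have no name.

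Genes reaching a value of 10 in 3 or more libraries were tested as log2(value + 1) with limma 3.58.1 in R 4.3.3 (trend, all 12 libraries in 1 fit, two-sided, 6 comparisons). A gene could pass this filter through 1 group alone, as Twist1 and Ap1m2 did through control. Further examples had a mean of at least 10 in 1 group only. They include Wnt11 in control (15.9 ± 1.58), Hoxc9 in dKO (53.5 ± 16.4) and Slc12a3 with ciliobrevin D (16.1 ± 2.29). Calls of such genes against that group then partly follow from the filter, also within the list counts. The 9 genes, the lists and the tests were chosen with earlier results of these data known. All 9 genes are named, and from each list the 2 called genes with the smallest adjusted p in each of the first 3 comparisons. Markers of other cell types are given mainly by their sums, without all genes of this rule. Markers named as abundant or absent fall outside it, as do Cldn8, Slc14a2 and the genes named for the filter. The most similar genes were the 2 with the highest Pearson correlation among named genes with a mean of at least 100. The alternatives changed the pseudocount (0.5 or 5), the filter (none, or a mean of 50), the scaling (quantile or TMM), the tool (DESeq2 1.42.0 or edgeR 4.0.16, both on reads recovered from the values), the samples (only the groups compared, or each library left out) or the model (a replicate block). Removal of chromosome medians and recounts of the lists were chosen after seeing the data. The fits were tested on simulated data.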

Additional observations from a re-analysis of the deposited data

How the results depend on the processing

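Over 23 alternatives, the log2 fold changes of the 9 genes in the 6 comparisons kept their side of the threshold and direction in 1194 cases, lost a call in 36, gained one in 7 and turned in 5. The count of the 9 genes called with ciliobrevin D in Actr3 KO was 8, and 5 under quantile normalization, where Sox4, Pax8 and Elf3 were not called; the cause was not tested. All other counts, of genes and of the 9, stayed within 1.5 times. Of the turned values only that of Sox4 with ciliobrevin D (-0.048 under quantile normalization) had been called. The others were Grhl2 in dKO against control (0.052, quantile normalization), Gata3 in dKO against ciliobrevin D-treated Actr3 KO (from -0.082 without ciliobrevin D replicate 2 and -0.067 without dKO replicate 3 up to 0.30 without dKO replicate 2) and Sox4 in the same comparison (-0.047, chromosome medians removed). Elf3 in that last comparison (0.12) lost its call in 13 of 23 alternatives, and Pax8 in dKO against control (adjusted p = 0.192) and in dKO against treated cells (0.0768) under quantile normalization. Same-numbered libraries correlated in their deviations from group means at -0.042 to 0.067 over 15 pairs, none over 0.1. Other pairs of numbered libraries ran from -0.104 to 0.104. Whether libraries with the same number were handled together was not tested. With a replicate block (11 libraries, without the unnumbered control), 7, 6, 7, 7, 7 and 5 of the 9 genes were called in the comparisons in the order of the report, among 9005, 9133, 9107, 8671, 8322 and 10151 genes in all. In 17 of 30 comparisons a library correlated best with its own number, a count for which no expected value was computed. On recovered reads edgeR called 9856, 9236 and 9143 genes in the first 3 comparisons. Read depth limits Gata3 and Lhx1 most.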
